A study of Mus musculus with 12 samples.

Results

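The fragments of the cytosolic histidine tRNA, listed in the data as mature-tRNA-His-GTG, were followed through small RNA libraries of mouse sperm and of TM4 cells, a mouse Sertoli cell line. Every read assigned to that tRNA was counted and placed in 1 of 3 fragment classes, so the set held 3 of the 152 fragment classes with a read and 1 of the 51 isoacceptors. tRF5 reads came from the 5′ end of the tRNA, tRF3 reads from its 3′ end with or without the CCA tail, and the class "other" held all remaining reads. Sperm came from C57BL6/J males fed a control diet (CD, 16% of kcal from fat) or a high-fat diet (HFD, 69% per the labels, while the study's methods give a lower percentage) for 7 weeks from 4 weeks of age, with 3 libraries per group, each made from 3 sperm samples pooled. TM4 cells were non-treated (Ctrl), treated with 10 µM of Compound C, an AMPK inhibitor, for 12 h (CC), or made to overexpress *Ang*, which encodes the tRNA-cleaving ribonuclease angiogenin (AngOE), with 2 libraries per group. The AngOE group carried the full *Ang* coding sequence on a plasmid. Neither a vehicle nor an empty plasmid is named for the Ctrl group, the labels do not say whether its 2 libraries came from separate cultures, and both treatments were compared with the same 2 Ctrl libraries. *Ang* itself was not measured in these small RNA files.

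Transfer RNAs carry amino acids to the ribosome, and the histidine tRNA reads the histidine codons through its GTG anticodon. It is set apart from other tRNAs by its 5′ end: in most eukaryotes the enzyme Thg1 (*Thg1l* in the mouse) adds a guanosine in front of the first encoded base, and histidyl-tRNA synthetase recognises that added base. Angiogenin cuts tRNAs in the anticodon loop under stress and leaves a 5′ and a 3′ piece, and 5′ fragments of a few tRNAs are abundant in mature sperm.

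A search of the mouse genome (GRCm39) for tRNA cloverleaves with this anticodon found 10 genes, on chromosomes 2, 3 and 4 with 3, 6 and 1 genes, the same number on each as RefSeq lists. All were 72 bases long, without the added guanosine and the CCA tail, and they held 3 different sequences. They are shown in full because the class of a read depends on where it lies along them, and the capitals mark the anticodon, which starts at position 34 counted from the first encoded base.

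tRNA-His-GTG sequence of 8 genes: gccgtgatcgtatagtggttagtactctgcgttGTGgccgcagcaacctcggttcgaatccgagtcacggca

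tRNA-His-GTG sequence of 1 gene, with T5A, G31A, C39T and A67T: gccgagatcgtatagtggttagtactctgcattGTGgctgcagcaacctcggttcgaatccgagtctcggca

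tRNA-His-GTG sequence of 1 gene, with T16G: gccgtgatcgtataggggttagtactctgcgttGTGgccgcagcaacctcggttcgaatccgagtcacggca

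In the substitutions the base of the most frequent sequence stands first. The 3 genes on chromosome 2 (GRCm39, 122205975 to 122206046 and 122207844 to 122207915 on the minus strand, and 122208449 to 122208520 on the plus strand) lay in introns of the long non-coding RNA gene Gm39918. On chromosome 3, 2 of the 6 genes were intergenic, 2 lay in the long non-coding RNA gene BC107364 and 2 in Gm10685, in each case 1 in an exon and 1 in an intron. The gene on chromosome 4 (82537860 to 82537931, minus strand) lay in an intron of *Nfib*. The reads were not assigned to single genes in the files, so the fragments of the 10 genes could not be separated.

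The base that the genome holds directly before the tRNA was a C in 9 genes and a T in 1, and a G in 0 of the 10. The start of 2 genes is shown for this base, with the 15 bases before the tRNA, the last of them in capitals, and the first 20 bases of the tRNA.

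Chromosome 4 gene (82537860 to 82537931, minus strand): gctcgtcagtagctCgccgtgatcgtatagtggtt

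Chromosome 3 gene (96371288 to 96371359, minus strand): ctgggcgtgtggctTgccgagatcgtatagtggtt

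The tRF5 reads of tRNA-His-GTG stood apart from those of the other tRNAs in their match to the genome. Of 192706 such reads in the 12 libraries, 0 matched the genome that the authors aligned to. Counting error alone allows a matching share of up to 0.0103% to 0.0948% in a single library. The other 49 isoacceptors with tRF5 reads had 19893826 of them, of which 1 read, from tRNA-Tyr-GTA in the second CC library, lacked a match. tRNA-His-GTG therefore held all tRF5 reads without a genome match in 11 libraries and 99.97% of them in the remaining library.

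Of the remaining reads of the same tRNA, those of the class other mostly matched the genome, while the CCA-tailed reads did not. In the median of the other isoacceptors, 62.0% to 85.0% of the CCA-tailed reads lacked a match, depending on the library. In the class other, between 0.0801% and 1.37% of the reads lacked a genome match, and in the CCA-tailed reads, whose tail is added after transcription, between 98.8% and 100% lacked one. A read identical to the encoded 5′ end would match the genome, and no tRF5 read did. Reads of that kind were thus not found in the tRF5 class, and whether any stood under other was not tested. The read sequences, and the tRNA reference that defined the 5′ end, were not used here, so whether the tRF5 reads began with the added guanosine was not tested.

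**Figure D1:**
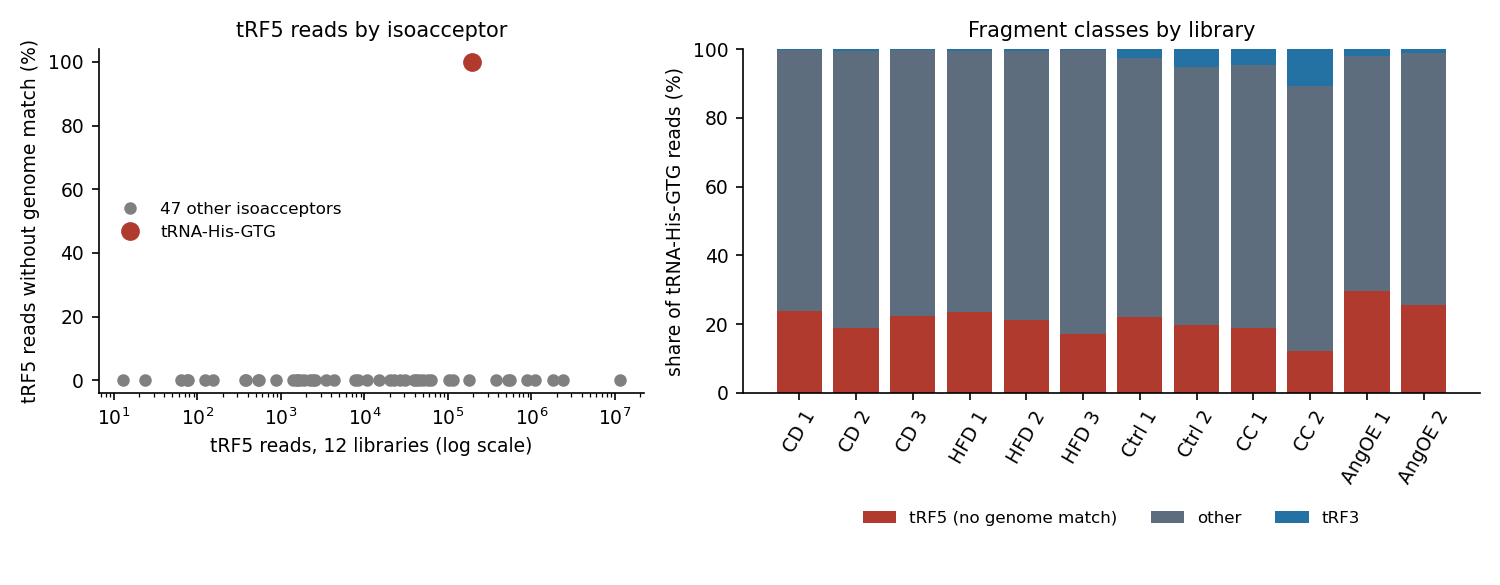
Left, tRF5 reads summed over the 12 libraries (log scale) against the percentage of them without a genome match, 1 point per isoacceptor with at least 10 tRF5 reads. Right, share of the tRNA-His-GTG reads in each class, in percent, per library. tRNA-His-GTG sits alone at 100% in the left plot, and other is the largest class in each of the 12 libraries.

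Most tRNA-His-GTG reads were neither tRF5 nor tRF3. The class other held 75.9% to 82.5% of them in sperm and 68.3% to 76.9% in TM4 cells. The median isoacceptor with at least 100 reads had 55.5% to 65.3% of its reads in that class in sperm libraries and 35.4% to 49.1% in TM4 libraries. tRNA-His-GTG ranked between the 5th and the 18th of 49 or 50 isoacceptors by this share, so it was high but not alone. tRF5 held 17.1% to 23.8% of the reads in sperm and 12.3% to 29.6% in TM4 cells. tRF3 held 0.168% to 0.617% in sperm and 1.06% to 10.8% in TM4 cells.

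Libraries held 31710445 to 64038150 clean reads and 1272431 to 4595103 reads of mature tRNAs. Levels are given as reads per 1000000 clean reads without rRNA (RPM), and each read is 1 fragment, so no correction for length was made. rRNA took 16.5% to 25.2% of the clean reads in the CD group, 24.7% to 32.9% in the HFD group and 5.92% to 8.58% in TM4 libraries. The epithelial miRNA list (5 of 5 detected in both sperm groups, 4 of 5 in each TM4 group) summed to 4480 to 7580 RPM in sperm and 0.719 to 1.55 RPM in TM4 cells, and all 6 spermatogenic miRNAs were detected in sperm. The 1 Sertoli cell marker fixed for the label of the TM4 line, mir-202, lay between 0 and 0.110 RPM in TM4 libraries and between 2.57 and 28.8 RPM in sperm.

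In the CD group, tRNA-His-GTG reads stood at 3657, 3014 and 4709 RPM, and in the HFD group at 3056, 2950 and 3933 RPM. The groups overlapped. The means were 3793 ± 856 RPM (SD, n = 3) for CD and 3313 ± 540 RPM (SD, n = 3) for HFD, and an exact 2-sided permutation test gave p = 0.6, where the smallest p that 3 against 3 libraries can give is 0.1. Among the isoacceptors tRNA-His-GTG ranked 5th by mean RPM in CD, after tRNA-Val-AAC and before tRNA-Leu-CAG, and 7th in HFD, after tRNA-Ser-AGA and before tRNA-iMet-CAT. Its share of all mature tRNA reads was 2.67% ± 0.258 (SD, n = 3) in CD and 2.46% ± 0.503 (SD, n = 3) in HFD (exact permutation p = 0.6). Leaving 1 library out, the difference in level, HFD minus CD, ran from -870 RPM (without the second CD library) to -22.6 RPM (without the third), and that in share from -0.498 (without the third HFD library) to -0.0254 percentage points (without the second).

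The level of tRF5-His-GTG, whose reads lacked a genome match, was 872, 570 and 1052 RPM in CD and 718, 625 and 674 RPM in HFD. All 3 HFD libraries fell inside the range of the CD libraries. The log2 fold change of HFD over CD was -0.31 (SE 0.34, edgeR adjusted p = 0.485), and with TMM scaling, which moved the median of all tRFs from 0.44 to -0.06, it was -0.89 (unadjusted p = 0.0102, edgeR adjusted p = 0.412). Leaving 1 library out, it ran from -0.52 (without the second CD library) to -0.10 (without the third). In that comparison 0 of 142 tRFs passed an adjusted p of 0.05 (0%), 23 had an unadjusted p under 0.05 (16.2%), and DESeq2 called 0 with 29 at an unadjusted p under 0.05. The median log2 fold change of all tRFs tested was 0.44 and that of the 43 tRF5 tested was 0.29, and tRF5-His-GTG ranked 138th of 142 from the highest value. Without the second CD library 26 tRFs were called, with tRF5-His-GTG, tRF3-His-GTG and other-His-GTG not among them. That library stood highest in the spermatogenic list, at 4024 RPM against 1670 to 2054 RPM in HFD, with mir-871 at 2069 RPM against 336 to 852 RPM in the other sperm libraries, and the part of this in the values was not tested.

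The level of other-His-GTG was 2776, 2432 and 3649 RPM in CD and 2319, 2312 and 3246 RPM in HFD. The groups again overlapped. Its log2 fold change was -0.17 (SE 0.32, edgeR adjusted p = 0.659), the lowest value among the 50 tRFs of the class other, whose median was 0.55. With TMM scaling it was -0.74 (unadjusted p = 0.0421, edgeR adjusted p = 0.855).

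tRF3-His-GTG was the rarest class in sperm, at 9.20, 12.0 and 7.91 RPM in CD and 18.9, 12.7 and 13.5 RPM in HFD. The 3 HFD libraries lay above the 3 CD libraries, and the groups of 26.8% of all tRFs tested were separated in the same way, in either direction. The log2 fold change was 0.63 (SE 0.30, unadjusted p = 0.0349, edgeR adjusted p = 0.260), and it came to 0.14 with TMM scaling. tRF3-His-GTG was 1 of the 23 tRFs with an unadjusted p under 0.05, a share of 16.2% over all tRFs. Its count rested on 219 to 525 reads per library, nearly all with the CCA tail.

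Within the tRNA-His-GTG reads, the share of tRF5 was 21.7% ± 2.54 (SD, n = 3) in CD and 20.6% ± 3.22 (SD, n = 3) in HFD, with an exact permutation p of 0.6 and 0.7 after adjustment over the 3 classes. The share of tRF3 was 0.273% ± 0.117 (SD, n = 3) in CD and 0.464% ± 0.140 (SD, n = 3) in HFD (exact permutation p = 0.2, adjusted 0.6). With 3 libraries a group these tests could not pass 0.05, so they do not show that the diets left the composition the same. The 4 white blood cell miRNAs, all detected, summed to 285 to 337 RPM in CD and 423 to 719 RPM in HFD, and the part of such cells in the values of tRNA-His-GTG was not tested. In these bulk libraries fewer cells of a type and less RNA per cell cannot be told apart.

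**Figure D2:**
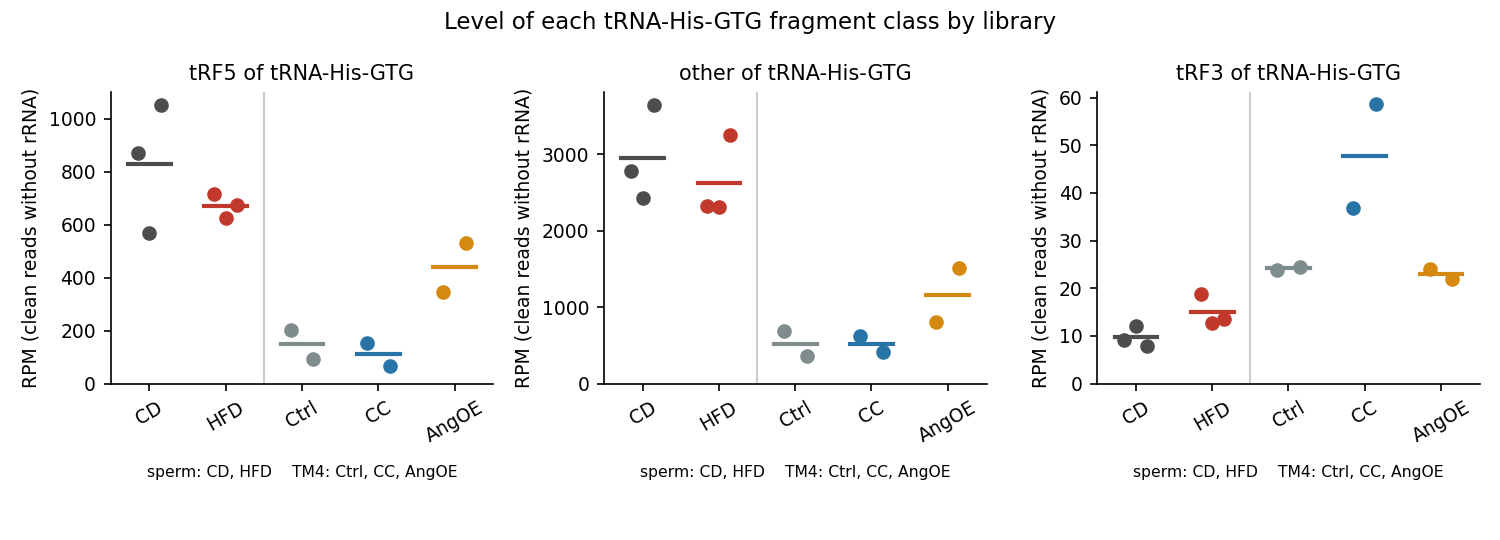
RPM (vertical axes, from 0) of the tRF5, other and tRF3 reads of tRNA-His-GTG, 1 point per library and a bar at the group mean, with sperm (CD, HFD) left and TM4 cells (Ctrl, CC, AngOE) right of the line. tRF5 and other are highest in sperm and, among TM4 groups, in AngOE at 348 and 532 RPM and 802 and 1513 RPM, while tRF3 is highest in CC at 36.8 and 58.6 RPM.

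In TM4 cells tRNA-His-GTG reads stood at 916 and 475 RPM in Ctrl, 819 and 541 RPM in CC, and 1174 and 2066 RPM in AngOE. The AngOE libraries lay above the other 4, and the reads of 30 of 50 isoacceptors were separated in this way, in either direction (60%). As a share of all tRNA reads tRNA-His-GTG made up 2.10% to 3.32% in Ctrl, 2.03% to 3.01% in CC and 3.19% to 4.17% in AngOE, so the AngOE and Ctrl ranges overlapped on that scale. With 2 libraries against 2 an exact permutation test cannot give a p under 0.33, so the tests below come from models over all tRFs.

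The level of tRF5-His-GTG was 204 and 93.9 RPM in Ctrl and 348 and 532 RPM in AngOE. Both AngOE libraries lay above both Ctrl libraries, and the libraries of these groups were separated, in either direction, for 77.6% of all tRFs tested. The log2 fold change was 1.56 (SE 0.53, a 2.95-fold higher level), with an edgeR adjusted p of 0.0763, which missed the threshold of 0.05. In this comparison 15 of 143 tRFs were called (10.5%), 7 higher and 8 lower in AngOE, and tRF5-His-GTG was not among them. Its rank was 9th of 143 by fold change, and the median log2 fold change was 0.63 over the 44 tRF5 and -0.01 over all tRFs.

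This call depended on the test. DESeq2 with the same library sizes gave an adjusted p of 0.0106 for tRF5-His-GTG and called 32 of 143 tRFs. The fit of the Ctrl and AngOE libraries alone gave an edgeR adjusted p of 0.0329 and called 45 of 142. TMM scaling gave 0.0732 and the replicate block 0.0723. Without the first Ctrl library, the higher of the pair, the log2 fold change was 2.23 (edgeR adjusted p = 0.0419), and without the second it was 1.11 (edgeR adjusted p = 0.437), with 3 tRFs called in all. Each of these fits leaves 1 Ctrl library, which is assumed to vary like the other groups.

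The level of other-His-GTG was 688 and 357 RPM in Ctrl and 802 and 1513 RPM in AngOE. The groups did not overlap, and the log2 fold change was 1.15 (SE 0.51, edgeR adjusted p = 0.144). DESeq2 with the same library sizes gave an adjusted p of 0.0474. Leaving 1 library out, the value ran from 0.62 (without the second AngOE library, edgeR adjusted p = 0.515) to 1.70 (without the first Ctrl library, edgeR adjusted p = 0.168). tRF5 and other reads were also added together for every isoacceptor, a choice made after seeing the data. This sum does not depend on how reads were divided between these classes, and it holds the same reads, so it is not a separate source of support. Its log2 fold change was 1.25 (SE 0.51, edgeR adjusted p = 0.0458), and 34 of 99 tRFs passed. tRF3-His-GTG was at 23.9 and 24.5 RPM in Ctrl and 24.1 and 21.95 RPM in AngOE, with overlapping groups and a log2 fold change of -0.07 (SE 0.26, edgeR adjusted p = 0.839). So the values of tRF5-His-GTG and other-His-GTG in AngOE lay above those in Ctrl, with a difference past the threshold in some of the tests and not in others, and those of tRF3-His-GTG overlapped.

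Compound C is a kinase inhibitor used here against AMPK, and no class of tRNA-His-GTG passed between CC and Ctrl. tRF5-His-GTG stood at 155 and 66.5 RPM in CC, inside and below the range of 93.9 to 204 RPM in Ctrl (log2 fold change -0.43, SE 0.52, edgeR adjusted p = 0.554). Its direction changed when 1 library was left out, to 0.24 without the first Ctrl library and 0.06 without the second CC library. With the replicate block the value was -0.44. other-His-GTG, at 628 and 416 RPM in CC, had a log2 fold change of -0.00 (SE 0.50, edgeR adjusted p = 0.998). tRF3-His-GTG was at 36.8 and 58.6 RPM in CC, above both Ctrl libraries, in a comparison where 64.3% of all tRFs did not overlap between the groups. Its log2 fold change was 0.98 (SE 0.26, a 1.97-fold higher level, edgeR adjusted p = 0.132), 8th of 143 and 3rd of the 49 tRF3 tested, and it was 0.61 with TMM scaling. 1 of 143 tRFs was called between CC and Ctrl (0.699%), and tRF3-His-GTG was not it. Without the first CC library, whose value was the lower of the pair, tRF3-His-GTG had a log2 fold change of 1.28 (edgeR adjusted p = 0.0159) and 41 tRFs were called, and without the second CC library it had 0.60 (edgeR adjusted p = 0.466). Both fits take the spread of the lone CC library from the other groups. Without the first or the second Ctrl library the edgeR adjusted p was 0.569 or 0.263.

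AngOE and CC differed in both ends of tRNA-His-GTG. tRF5-His-GTG was higher in AngOE than in CC with a log2 fold change of 1.99 (SE 0.54, a 3.97-fold higher level, edgeR adjusted p = 0.0185), and tRF3-His-GTG was lower in AngOE with a log2 fold change of -1.05 (SE 0.26, edgeR adjusted p = 0.0143). Here 74 of 143 tRFs were called (51.7%), 19 higher and 55 lower in AngOE, so a call was common. With TMM scaling the split was 26 higher and 29 lower, and tRF3-His-GTG had a log2 fold change of -0.62 (edgeR adjusted p = 0.0425). The tRF3 of tRNA-His-GTG was 1 of 38 of the 49 tRF3 called lower, and its tRF5 1 of 16 of the 44 tRF5 called higher. other-His-GTG had a log2 fold change of 1.15 (SE 0.51, edgeR adjusted p = 0.0948), the highest of the 50 tRFs of that class, whose median was -0.25. It ran from 0.62 (without the second AngOE library, edgeR adjusted p = 0.407) to 1.53 (without the first). The groups of all 3 fragment classes of tRNA-His-GTG were separated, as were those of 79.7% of all tRFs. Without the second CC library the tRF5 call was lost (log2 fold change 1.51, edgeR adjusted p = 0.0651), with 48 tRFs called in all, and without the first AngOE library 43 were called. The tRF3 call held without each library, with values from -1.35 (without the first CC library) to -0.68 (without the second, edgeR adjusted p = 0.0445). The 2 smooth muscle miRNAs, both detected in every group, summed to 61711 to 79792 RPM in AngOE against 29770 to 42667 RPM in the other TM4 libraries. Most of this was mir-143, while mir-145a overlapped, at 916 and 740 RPM in AngOE and 682 to 850 RPM in the others. The spermatogenic list, with 5 of 6 detected in each TM4 group, summed to 1195 to 1334 RPM in AngOE against 550 to 609 RPM. Most of it was mir-34c, at 1277 and 1134 RPM in AngOE, with mir-34b and mir-449a also higher there. mir-741, mir-871 and mir-880 lay between 0 and 0.367 RPM in TM4 libraries. The part of these miRNAs in the values of tRNA-His-GTG was not tested.

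**Figure D3:**
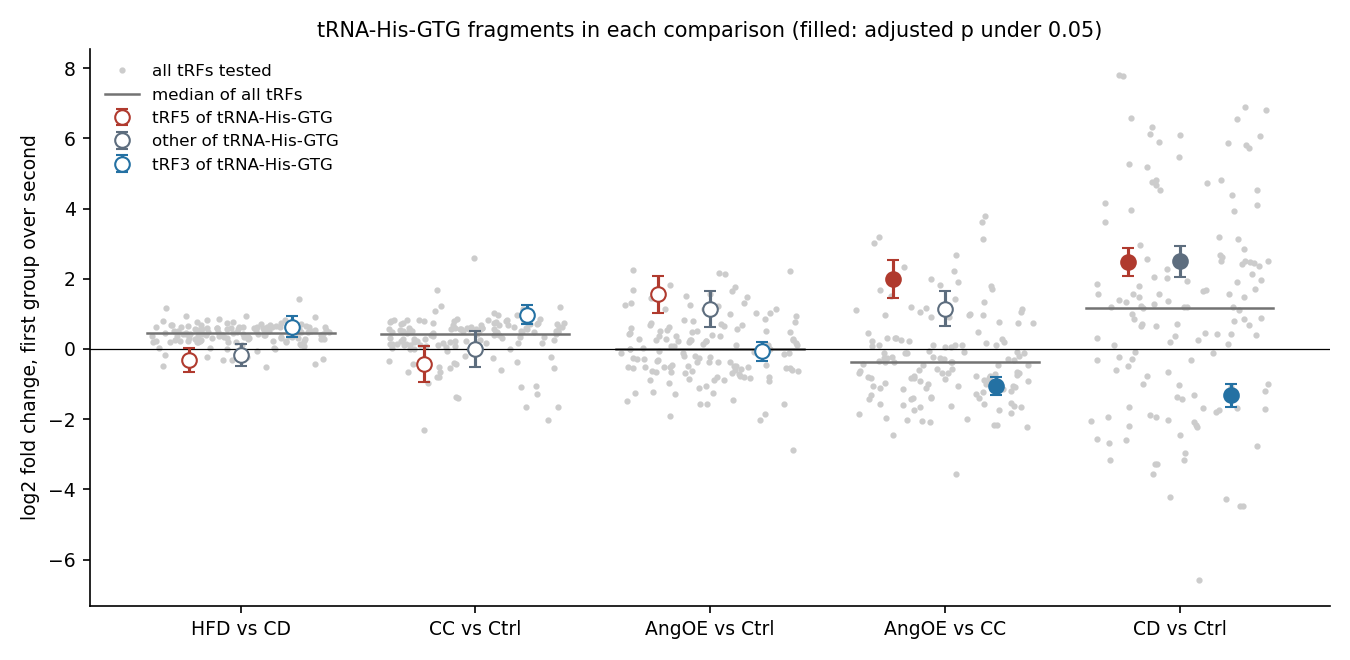
Log2 fold change of tRF5, other and tRF3 of tRNA-His-GTG (coloured points, bars of 1 SE either way, filled where the adjusted p is under 0.05) in each comparison, over all tRFs tested (grey dots) and their median (grey line). tRF5 and other lie below the median in HFD vs CD and above it in both AngOE comparisons, and tRF3 is filled in AngOE vs CC at -1.05 and in CD vs Ctrl at -1.32.

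The balance of the 2 ends was measured as the ratio of tRF5 to tRF3 reads of tRNA-His-GTG, with 0.5 read added to each. In sperm there were 94.7, 47.3 and 132.8 tRF5 reads per tRF3 read in CD and 38.03, 49.2 and 49.7 in HFD. In TM4 cells there were 8.53 and 3.83 in Ctrl, 4.21 and 1.13 in CC, and 14.4 and 24.2 in AngOE. tRF5 thus outnumbered tRF3 in all 12 libraries, whereas in the median of 49 isoacceptors tRF3 outnumbered tRF5 in all 6 TM4 libraries. tRNA-His-GTG ranked between the 3rd and the 9th of the 49 by this ratio.

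With limma over 49 isoacceptors, the log2 ratio of tRNA-His-GTG changed by -0.89 in HFD against CD (SE 0.51, adjusted p = 0.661). 0 isoacceptors were called there (0%), with 2 at an unadjusted p under 0.05. It changed by -1.39 in CC against Ctrl (SE 0.79, limma adjusted p = 0.330), where 1 isoacceptor was called (2.04%), and by 1.71 in AngOE against Ctrl (SE 0.79, limma adjusted p = 0.121), where 12 were called (24.5%), all higher in AngOE. tRNA-His-GTG was not among those. Leaving 1 library out, its value ran from -2.33 (without the first CC library) to -0.44 (without the second) in CC against Ctrl, from 1.13 (without the second Ctrl library) to 2.29 (without the first) in AngOE against Ctrl, and from -1.31 (without the second CD library) to -0.56 (without the third) in HFD against CD. Without the CCA-tailed reads in tRF3 it was -2.50 in CC against Ctrl (limma adjusted p = 0.214), -1.43 in HFD against CD (limma adjusted p = 0.568) and 1.14 in AngOE against Ctrl (limma adjusted p = 0.307). The difference between AngOE and CC passed, at 3.10 (SE 0.79, limma adjusted p = 0.0105), in a comparison where 29 isoacceptors passed (59.2%). That call was lost without the second CC library (2.15, limma adjusted p = 0.0680), without the first AngOE library (3.47, limma adjusted p = 0.0509) and without the second AngOE library (2.72, limma adjusted p = 0.102).

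**Figure D4:**
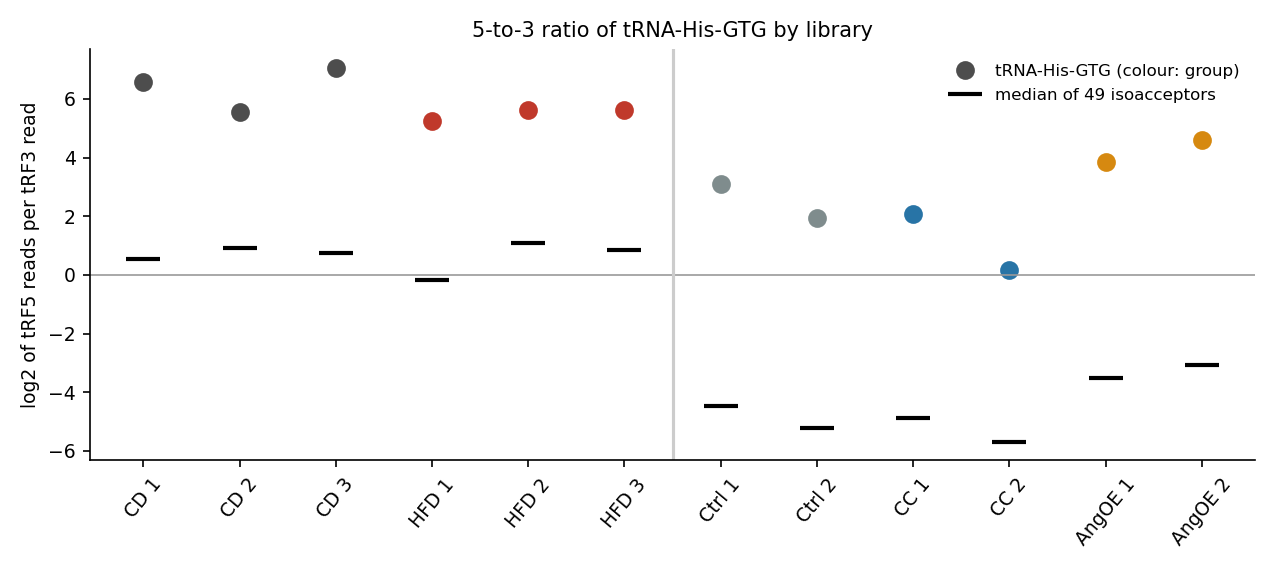
Log2 of tRF5 reads per tRF3 read of tRNA-His-GTG (coloured points, by group) and the median of 49 isoacceptors (black dashes) in each library, with 0 marking equal numbers. The points of tRNA-His-GTG lie above the median of the isoacceptors in all 12 libraries and above 0 in all of them, with 0.18 in the second CC library as the lowest.

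Sperm and TM4 cells, compared between the CD and Ctrl groups, held different amounts of each end of tRNA-His-GTG. In the mean, tRF5-His-GTG was at 831 RPM in CD and 149 RPM in Ctrl (log2 fold change 2.48, SE 0.40, edgeR adjusted p = 4.13e-09), and other-His-GTG at 2952 and 522 RPM (2.50, SE 0.45, edgeR adjusted p = 9.20e-08). tRF3-His-GTG was at 9.71 RPM in CD and 24.2 RPM in Ctrl (log2 fold change -1.32, SE 0.33, edgeR adjusted p = 0.000101). A call was the rule in this comparison, with 120 of 143 tRFs passing (83.9%), 78 higher and 42 lower in CD, and 52 higher and 58 lower with TMM scaling, under which the log2 fold changes of tRNA-His-GTG were 1.52 for tRF5, 1.52 for other and -2.38 for tRF3. tRF5-His-GTG lay near the median log2 fold change of 2.58 of the 44 tRF5. The 5-to-3 ratio of tRNA-His-GTG was higher in CD by 3.88 (SE 0.59, limma adjusted p = 0.000321), where 36 of 49 isoacceptors passed (73.5%), and it was also the median of the 49. Without the CCA-tailed reads in tRF3 the difference was -0.22 (limma adjusted p = 0.750), so the call rested on them, and without them no direction was clear.

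The direction of the 3′ fragments between sperm and TM4 cells depended on the CCA tail. With CCA-tailed reads set aside, the remaining tRF3-His-GTG reads numbered 6, 21 and 12 in the CD libraries and 5 and 2 in the Ctrl libraries, and their log2 fold change of CD over Ctrl was 2.91 (SE 0.61, edgeR adjusted p = 4.25e-06). Tissue, the pooling of samples and any difference in library preparation cannot be told apart in this comparison.

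Beside tRF5-His-GTG were set 8 other 5′ fragments known from sperm or angiogenin work (the tRF5 of tRNA-Gly-GCC, Gly-CCC, Glu-CTC, Glu-TTC, Val-AAC, Val-CAC, Lys-CTT and Asp-GTC). Between HFD and CD 0 of the 8 were called (0% of all tRFs), with a median log2 fold change of -0.25 and a range of -0.51 to 0.39, and tRF5-His-GTG at -0.31 lay inside it. Between CC and Ctrl 0 of 8 were called (0.699% of all tRFs), and all 8 had values below 0, from -2.32 for tRF5-Val-AAC to -0.36 for tRF5-Glu-TTC, with -0.43 for tRF5-His-GTG and a median of -0.42 over the 44 tRF5 tested. Between AngOE and Ctrl 0 of 8 were called (10.5% of all tRFs), with a median of 1.27 against 1.56 for tRF5-His-GTG, and 7 of the 8 values lay above 0, from -0.26 for tRF5-Glu-TTC to 2.15 for tRF5-Gly-GCC. Between AngOE and CC 6 of 8 were called higher and 0 called lower (51.7% of all tRFs were called), the values of all 8 lay above 0, the median was 2.45, and tRF5-Val-CAC had the highest value, 3.79, against 1.99 for tRF5-His-GTG. Between CD and Ctrl 6 of the 8 were called higher and 2 lower (83.9% of all tRFs were called), with a median of 2.28.

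By level, tRF5-His-GTG was among the 10 most abundant tRF5 in each group. It ranked 8th of 48 tRF5 in CD, next below tRF5-Ser-TGA, 9th of 48 in HFD, and 6th of 48 or 49 in each TM4 group. tRF5-Gly-GCC, by comparison, stood at 69018 ± 22023 RPM (SD, n = 3) in CD and 10828 ± 1170 RPM (SD, n = 2) in AngOE. Over all 3 classes, tRF5-His-GTG came after other-Lys-TTT in HFD, after tRF3-Glu-TTC in Ctrl, after other-Tyr-GTA in CC and after tRF3-Gly-TCC in AngOE, and before other-Ser-GCT in CD, other-Tyr-GTA in HFD, tRF3-Ser-GCT in Ctrl, tRF3-Ser-TGA in CC and tRF3-Ala-TGC in AngOE. The gap to the next tRF above was smaller than the SD of tRF5-His-GTG in each of the 5 groups.

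The tRFs whose levels followed tRF5-His-GTG most closely from library to library were other tRF5. Over the 6 sperm libraries and 138 tRFs, Pearson's r of log2(RPM + 1) was 0.97 for tRF5-Val-AAC, 0.97 for tRF5-Val-CAC, 0.95 for tRF5-Lys-CTT, 0.92 for tRF5-Gly-GCC and 0.92 for tRF5-Glu-CTC. other-His-GTG, from the same tRNA, came 8th with 0.70. Over the 6 TM4 libraries and 136 tRFs, the first 5 were the tRF5 of tRNA-iMet-CAT (0.99), Arg-TCT (0.98), Arg-CCG (0.98), Lys-TTT (0.97) and Gly-GCC (0.96), and other-His-GTG came 10th with 0.95. These are descriptions over 6 libraries that share their depth and their group with the fragments compared, and carry no test.

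The number of other reads per tRF5 read of tRNA-His-GTG gave the same comparison within 1 tRNA. It was 3.64 ± 0.563 (SD, n = 3) in CD, 3.92 ± 0.815 (SD, n = 3) in HFD, 3.38 and 3.797 in Ctrl, 4.06 and 6.26 in CC, and 2.31 and 2.85 in AngOE. The AngOE libraries lay below the other 4 TM4 libraries, and 24 of 39 isoacceptors with at least 10 tRF5 reads in each were also separated there, in either direction (61.5%). The CC libraries lay above Ctrl, where 22 of the 39 were separated (56.4%).

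Precursors of tRNA-His gave 0 reads in each of the 12 libraries, which allows up to 0.0503 to 0.130 RPM, while precursors of all tRNAs gave 88 to 2140 reads. The mitochondrial histidine tRNA, made from the mitochondrial genome for translation there, was counted apart. It stood at 119 to 181 RPM in sperm, 26.7 and 18.1 RPM in Ctrl, 22.9 and 11.6 RPM in CC, and 7.59 and 5.997 RPM in AngOE. Between Ctrl and AngOE its values thus lay in the opposite order to those of the cytosolic tRNA, with no test made. Its tRF5 reads numbered 0 to 27 per library, against 3166 to 29148 for the cytosolic tRNA.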

How the data were processed

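Small RNA libraries of sperm (CD and HFD, 3 each) and TM4 cells (Ctrl, CC and AngOE, 2 each) were grouped by their labels. The authors trimmed reads (Trimmomatic 0.40, FastQC 0.12.0 and mm10 are named in the submitters' processing notes), kept those of 15 to 45 nt and annotated them with SPORTS1.1, allowing 1 mismatch. The deposited values are estimated counts per RNA subclass, not normalized, in which a read with several matches is divided among subclasses. The step to which the mismatch applied is not given in the sources used here. The authors also applied ComBat-seq to the cell lines, with batches that are not named.

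Reads with and without a genome match were added, and clean reads without rRNA served as library size (23030602 to 59623558). After a filter (10 or more reads, in 3 or more libraries for sperm and 2 or more for TM4 cells) tRFs were tested on rounded counts with edgeR 4.0.16 (quasi-likelihood, no further scaling, the 6 TM4 libraries in 1 model) in R 4.3.3, with Benjamini-Hochberg adjustment over all tRFs and calls at an adjusted p under 0.05. Ratios were tested with limma 3.58.1, and sperm shares with exact permutation tests in scipy 1.17.1. For CD against Ctrl the model held those 2 groups of libraries. The ratio used isoacceptors with at least 10 tRF5 and tRF3 reads together. On simulated data with log2 changes of 2, 100% of the changed tRFs tested were recovered in each of the 5 comparisons, with 0 to 2 false calls. The simulated spread was fixed and the same for every tRF, so recovery of real changes can be lower. In AngOE against Ctrl tRF5-Gly-GCC, with a log2 fold change of 2.15 (SE 0.76), was not called (edgeR adjusted p = 0.0823). Floors of 3 counts cover counting error only. p-values in TM4 cells measure the spread between libraries, which may be technical. tRNA genes were found by a search of GRCm39 for cloverleaves with 18 to 21 paired positions (1 autosome was not searched), and their coordinates belong to that build, not to mm10.

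The named tRFs were the 3 classes of tRNA-His-GTG, 8 tRF5 known from sperm or angiogenin work, the neighbours of tRF5-His-GTG in mean RPM and the 5 tRFs most like it in sperm and in TM4 cells. The members and lists were chosen with earlier results of these data known. Alternatives were TMM scaling, all clean reads as library size, DESeq2 1.42.0, other filters and pseudocounts, genome-matched reads alone, CCA-tailed reads apart, a replicate block, ComBat-seq (sva 3.50.0), fits of 2 groups and leaving out each library. Adding tRF5 and other reads together was chosen after seeing the data.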

Additional observations from a re-analysis of the deposited data

How the results depend on the processing

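Leaving 1 library out, the log2 fold change of tRF5-His-GTG ran from -1.16 to 0.24 in CC against Ctrl, from 1.11 to 2.23 in AngOE against Ctrl and from 1.51 to 2.72 in AngOE against CC. That of other-His-GTG ran from -0.35 to 0.012 in HFD against CD and from -0.40 to 0.55 in CC against Ctrl, that of tRF3-His-GTG in CC against Ctrl from 0.60 to 1.28, and the 5-to-3 ratio in AngOE against CC from 2.15 to 4.04. The difference in the tRF5 share of tRNA-His-GTG reads, HFD minus CD, ran from -2.54 to 0.640 percentage points, and that in the share of other from -0.891 to 2.42.

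tRF5-His-GTG in AngOE against Ctrl passed at 1.56 with DESeq2 and the same library sizes, 1.62 with DESeq2's own size factors, 1.67 with ComBat-seq and 1.56 in the fit of 2 groups. other-His-GTG passed there at 1.15 and 1.19 with DESeq2, and in AngOE against CC at 1.15 and 1.51 with DESeq2 and 1.14 with ComBat-seq. The sum of tRF5 and other, a feature of its own, was 1.25 in AngOE against Ctrl and 1.34 in AngOE against CC. tRF3-His-GTG in CC against Ctrl passed at 0.94 with ComBat-seq and 0.98 where tRF5 and other were added together. In that summed fit fewer classes were tested. Its unadjusted edgeR p was also lower, 0.000228 against 0.00587 in the main fit, at the same log2 fold change. With genome-matched reads alone tRF3-His-GTG, then nearly without CCA-tailed reads, was 1.87 in CC against Ctrl and 0.18 in AngOE against Ctrl, missed the threshold at -1.68 in AngOE against CC and was 2.54 in CD against Ctrl. With CCA-tailed reads apart it was 2.91 in CD against Ctrl, and the ratio there was -0.22 without them. other-His-GTG in CC against Ctrl changed sign to 0.0084 with ComBat-seq. The causes of these changes were not tested unless stated. Of 172 values outside the leave-one-out fits 154 kept their direction and their side of the threshold. Genome-matched reads alone gave no value for tRF5-His-GTG or its ratio, and CCA-tailed reads apart none for tRF3-His-GTG in TM4 comparisons, for lack of reads.

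The correlation of same-numbered libraries' deviations over all tRFs was 0.02, 0.21 and 0.21 for HFD and CD, with each library most like its own number. It was 0.76 for CC and Ctrl, also with each library most like its own number, -0.22 for AngOE and Ctrl and -0.25 for AngOE and CC. No label says what a number stands for, 2 pairs are too few to tell from the TM4 data, and in sperm 1 of the 3 values was near 0, so the main tests did not pair the libraries. The replicate block gave 0.012 for other-His-GTG in CC against Ctrl and changed no other sign or call of tRNA-His-GTG (tRF5-His-GTG -0.26 in HFD against CD, 1.73 in AngOE against Ctrl and 2.17 in AngOE against CC). It moved the tRFs called from 1 to 2 in CC against Ctrl and from 15 to 25 in AngOE against Ctrl.

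Counts of called tRFs moved further with other settings. In CC against Ctrl they were 6 with DESeq2, 50 with ComBat-seq, 2 in the fit of 2 groups, 12 with tRF5 and other added together and 41 without the first CC library. In AngOE against Ctrl they were 32 with TMM, 32 and 54 with DESeq2, 63 with ComBat-seq, 45 in the fit of 2 groups, 34 with tRF5 and other added together and 3 without the second Ctrl library. In HFD against CD 2 were called without the first HFD library. Isoacceptors with a called ratio in AngOE against Ctrl fell from 12 to 1 without CCA-tailed reads and to 0 without the second Ctrl or either AngOE library, and were 19 with 5 reads added. In AngOE against CC they fell from 29 to 15 without the second CC library and to 13 or 6 without an AngOE library. In CC against Ctrl they ranged from 0 to 10.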
